A study of Mus musculus with 8 samples.

Results

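The liver-enriched transcription factors Hnf4a, Foxa1, Foxa2, Foxa3, Cebpa, Cebpb, Nr5a2, Onecut1 and Prox1 were followed in 8 hepatocellular carcinomas of mice. These genes were given as a list of names of factors known from the liver, and were found through the transcript accession that the array files give for each probe. All 9 were measured, by 11 of the 55681 probes of the array, and all 9 were among the 14313 genes tested. The tumors came from male mice that lacked miR-122, the most abundant microRNA of hepatocytes, and the controls were livers of age-matched males that carried a floxed miR-122 gene. The background of both groups was mixed from C57BL/6J and 129S/Svj. Each of 8 Agilent arrays, all on 1 slide, held 1 tumor labelled with Cy5 and control liver labelled with Cy3, so each array gave 1 log2 ratio of tumor over control for each probe. The age of the mice, the Cre driver behind the knockout and the number of animals behind the control RNA are not given in the labels, and the dyes were not swapped. The level of miR-122 itself was not analysed here.

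These factors bind the promoters and enhancers of genes that hepatocytes use and, in the adult liver, also bind each other's regulatory regions, so that they form a cross-regulating network. Hnf4a, a nuclear receptor, and Foxa1, Foxa2 and Foxa3, forkhead proteins that can open closed chromatin, act in hepatocyte differentiation. Cebpa and Cebpb are leucine zipper proteins: Cebpa is linked to metabolic genes of resting hepatocytes and Cebpb to the acute phase response and regeneration. Nr5a2 is a nuclear receptor of bile acid and cholesterol metabolism, and the homeodomain proteins Onecut1 and Prox1 act early in liver development, Onecut1 also in the bile ducts.

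The 250 bases before an annotated start of Foxa1, Foxa2, Foxa3, Hnf4a, Onecut1 and Prox1 are shown because Foxa1 and Foxa3 had the lowest mean ratios of the 9 factors and Foxa2 is their close relative, because an ONECUT or FOXA motif lay in 3 of these windows, and because Onecut1 and Prox1 varied together over the tumors. The sequences are those of RefSeq on GRCm38.p6, written 5′ to 3′ on the strand of the gene, with a motif match in capitals. The table of promoters held 14 such windows for the 9 factors, since some genes have several annotated starts.
Foxa1, chr12:57546112-57546361 (minus strand): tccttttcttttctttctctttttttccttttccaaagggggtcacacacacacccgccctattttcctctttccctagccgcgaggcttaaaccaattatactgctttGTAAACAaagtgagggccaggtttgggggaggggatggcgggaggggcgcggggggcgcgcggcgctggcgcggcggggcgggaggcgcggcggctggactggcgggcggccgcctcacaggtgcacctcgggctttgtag
Foxa2, chr2:148046970-148047219 (minus strand): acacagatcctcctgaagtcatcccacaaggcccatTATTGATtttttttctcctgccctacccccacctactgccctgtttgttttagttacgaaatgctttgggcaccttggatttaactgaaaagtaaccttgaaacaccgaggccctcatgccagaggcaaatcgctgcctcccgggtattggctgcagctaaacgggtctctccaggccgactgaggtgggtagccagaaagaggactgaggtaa
Foxa3, chr7:19023540-19023789 (minus strand): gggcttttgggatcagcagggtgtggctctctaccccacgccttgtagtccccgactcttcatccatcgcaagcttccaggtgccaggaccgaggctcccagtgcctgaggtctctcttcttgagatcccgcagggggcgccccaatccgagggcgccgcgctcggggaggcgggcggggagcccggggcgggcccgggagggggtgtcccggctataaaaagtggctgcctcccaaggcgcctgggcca
Hnf4a, chr2:163506607-163506856 (plus strand): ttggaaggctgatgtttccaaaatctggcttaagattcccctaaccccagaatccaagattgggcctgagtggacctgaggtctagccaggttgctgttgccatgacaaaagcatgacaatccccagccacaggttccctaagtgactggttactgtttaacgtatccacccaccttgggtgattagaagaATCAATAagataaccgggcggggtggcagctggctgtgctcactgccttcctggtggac
Onecut1, chr9:74861671-74861920 (plus strand): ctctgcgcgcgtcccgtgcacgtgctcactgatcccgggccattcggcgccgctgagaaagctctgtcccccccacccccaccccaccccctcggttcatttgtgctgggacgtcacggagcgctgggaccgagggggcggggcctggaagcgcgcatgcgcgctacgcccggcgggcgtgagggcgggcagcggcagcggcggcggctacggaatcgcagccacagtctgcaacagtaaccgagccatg
Prox1, chr1:190170828-190171077 (minus strand): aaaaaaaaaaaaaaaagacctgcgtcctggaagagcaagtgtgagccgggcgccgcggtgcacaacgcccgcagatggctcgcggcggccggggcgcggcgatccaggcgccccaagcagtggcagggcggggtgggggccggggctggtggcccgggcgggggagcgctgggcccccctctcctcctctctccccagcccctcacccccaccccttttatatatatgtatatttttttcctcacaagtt

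Each window was searched on both strands for motifs named after the factors that bind them. The FOXA motif TGTTTAC was found in the Foxa1 window, where it reads GTAAACA on the strand shown and begins 141 bases before the start. It was present in 3.17% of all 32851 promoter windows of this length. The ONECUT motif TATTGAT was found in a Foxa2 window, 214 bases before the start, and in an Hnf4a window, where it reads ATCAATA and begins 59 bases before the start, against 1.86% of all windows. The C/EBP motif TTGCNNAA (9.56% of all windows) matched in 1 of the Nr5a2 windows, which are not shown. The HNF4 motif CAAAGTCCA (0.384%) and the NR5A2 motif CAAGGTCA (1.33%) matched in none of the 14 windows. These matches describe letters in the sequence and no binding was measured on these arrays.

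Of the 9 factors, Foxa1 alone was called lower in the tumors, where a call needed an adjusted p under 0.05 (limma, Benjamini-Hochberg over all 14313 genes) and a log2 ratio of 1 or more in size. In the background, 5.94% of all genes tested were called lower and 9.54% higher; 1 factor was called lower and 0 higher. At an adjusted p under 0.05 with no limit on size, 5 of the 9 factors (Hnf4a, Foxa1, Foxa3, Cebpa and Nr5a2) were below 0, where 25.1% of all genes were, and 0 of 9 were above 0, where 28.7% of all genes were. The median log2 ratio of the 9 factors was -0.39, against 0.03 for all genes tested. All 11 probes were well above background in both channels on all 8 arrays, and no spot was saturated. In RNA of whole tissue, fewer cells that express a gene and less of its RNA per cell cannot be told apart.

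**Figure D1:**
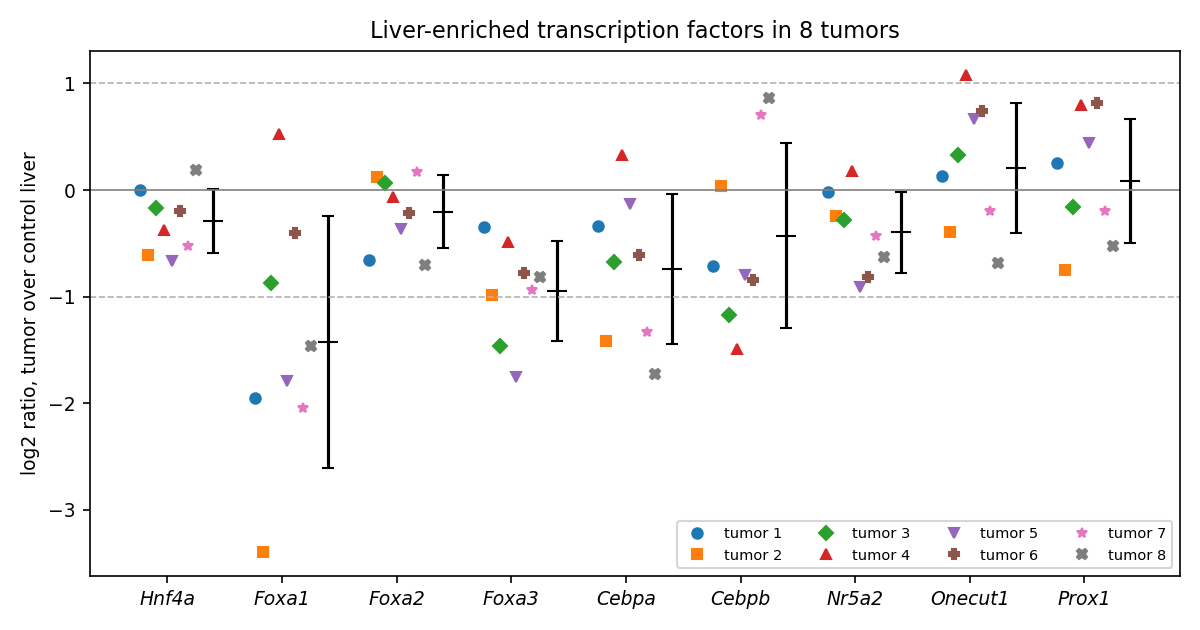
Log2 ratio of tumor over control liver (vertical axis) for each of the 9 factors (horizontal axis), with 1 symbol per tumor and a bar for the mean ± SD over 8 arrays; dashed lines mark log2 ratios of 1 and -1. Foxa1 spans -3.40 to 0.52, Foxa3 lies below 0 on all 8 arrays, and Onecut1 and Prox1 lie on both sides of 0.

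Foxa1, which opens chromatin for nuclear receptors, showed the lowest mean and the widest spread of the 9. Its log2 ratios in tumors 1 to 8 were -1.95, -3.40, -0.88, 0.52, -1.80, -0.40, -2.05 and -1.47. It was below 0 in 7 tumors and above 0 in tumor 4, and tumor 2 was lowest. The mean was -1.43 ± 1.18 (SD, n = 8; 95% interval -2.23 to -0.62), a 2.69-fold lower level, with an adjusted p of 0.00811 in limma. The exact two-sided sign-flip permutation test over the 8 arrays gave p = 0.0234. The spread lay in the tumors: on a log2 signal scale the Foxa1 level ran from 7.13 to 10.80 in the tumors (SD 1.14) and from 9.91 to 10.83 in the control livers (SD 0.31). In 6 of the 8 tumors it was below every control liver, while tumors 4 and 6 lay within the control range at 10.80 and 10.03. Over all genes tested, 96.5% had a smaller SD of the log2 ratio than Foxa1.

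Foxa3, the forkhead factor linked to glucose homeostasis in the adult liver, fell in every tumor but by less than the size a call required. Its log2 ratios were -0.35, -0.98, -1.46, -0.49, -1.75, -0.78, -0.93 and -0.81 in tumors 1 to 8. The lowest values were those of tumors 3 and 5, which were not the lowest for Foxa1. The mean was -0.94 ± 0.47 (SD, n = 8; 95% interval -1.29 to -0.60), 1.92-fold lower, with an adjusted p of 7.52e-04 in limma, and the exact sign-flip permutation test gave p = 0.00781, the smallest that 8 arrays allow. In 7 of 8 tumors the level was below every control liver. Of the 9 factors, Foxa3 alone was below 0 on all 8 arrays, as were 16.6% of all genes tested, and 0 factors were above 0 on all 8, as were 17.1% of genes. Levels of tumors and controls that did not overlap were found for 0 of the 9 factors, against 8.47% of all genes with every tumor lower and 8.32% with every tumor higher. Without tumor 1 or without tumor 4 the mean reached -1.03 and -1.01, and Foxa3 was then called lower too.

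Foxa2, the forkhead factor of bile acid and fasting metabolism, had a mean of -0.21 ± 0.34 (SD, n = 8; 95% interval -0.47 to 0.06) and did not pass the test (adjusted p = 0.174 in limma). Its ratios ran from -0.70 in tumor 8 and -0.66 in tumor 1 to 0.17 in tumor 7, so they lay on both sides of 0. A second Foxa2 probe gave a mean of -0.29 and ordered the tumors alike, with r = 0.904 between the 2 probes over the 8 arrays. Within arrays, Foxa1 was lower than Foxa2 in 7 of 8 tumors, by a mean log2 difference of -1.22 ± 1.25 (SD), which missed the threshold after adjustment over all 36 pairs of factors (exact sign-flip permutation test, p = 0.0234, adjusted p = 0.0844). Foxa2 and Foxa3 differed by 0.74 ± 0.65, also with an adjusted p of 0.0844 in that exact test. For Foxa1 and Foxa3 the difference was -0.48 ± 1.18 with p = 0.273 in the exact test.

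Hnf4a, the nuclear receptor that many hepatocyte genes depend on, was slightly lower. Its log2 ratios in tumors 1 to 8 were 0.00, -0.61, -0.17, -0.37, -0.67, -0.20, -0.52 and 0.19. Tumors 2, 5 and 7 were lowest and tumors 1 and 8 were at or above 0. The mean was -0.29 ± 0.30 (SD, n = 8; 95% interval -0.54 to -0.05), 1.22-fold lower, with an adjusted p of 0.0464 in limma. Only 11 of 21 other settings kept this under 0.05, and leaving out any 1 of tumors 2 to 7 raised it to between 0.0655 and 0.115. Tumor and control levels overlapped, with 1 tumor below every control liver.

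Nr5a2, which activates bile acid synthesis genes, had log2 ratios of -0.02, -0.25, -0.28, 0.18, -0.91, -0.82, -0.44 and -0.63 in tumors 1 to 8. The mean was -0.39 ± 0.38 (SD, n = 8), with an adjusted p of 0.0273 in limma, and 7 of 8 tumors were below 0. All 4 arrays in the second row of the slide, tumors 5 to 8, were below the 4 arrays in the first row, with row means of -0.70 and -0.09. The exact two-sided permutation test between rows gave p = 0.0286, the smallest it allows, and an adjusted p of 0.257 over the 9 row tests, and for the other 8 factors p was 0.229 or more. With the row as a block, the adjusted p for Nr5a2 in limma was 0.00582. A second, dimmer Nr5a2 probe gave a mean of 0.02, with r = -0.03 between the probes over 8 arrays. This rests on tumor 8, where the dimmer probe was at 1.28; without that tumor, r was 0.494 and the mean of the dimmer probe -0.17. With the mean of both probes the log2 ratio was -0.19 (adjusted p = 0.194 in limma), and without tumor 5, 6, 7 or 8 the adjusted p of the brighter probe was 0.0512 to 0.0691.

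Cebpa, the leucine zipper factor of metabolic genes, had log2 ratios of -0.34, -1.41, -0.68, 0.32, -0.13, -0.61, -1.33 and -1.73 in tumors 1 to 8. Tumors 2, 7 and 8 stood at -1.33 or lower and the other 5 at -0.68 or higher. The mean was -0.74 ± 0.70 (SD, n = 8; 95% interval -1.23 to -0.25), with an adjusted p of 0.0177 in limma and 7 of 8 tumors below 0. The adjusted p rose to 0.0796 without tumors 7 and 8 (mean -0.48) and to 0.0727 with arrays weighted by their quality (mean -0.46). In 4 of 8 tumors the level was below every control liver.

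Cebpb, the acute phase factor of the same family, showed the opposite order. Its log2 ratios were -0.71, 0.04, -1.18, -1.49, -0.80, -0.85, 0.70 and 0.86, so that tumors 2, 7 and 8 were the highest and tumor 4, the highest for Cebpa, was the lowest. The mean of -0.43 ± 0.87 (SD, n = 8; 95% interval -1.03 to 0.17) did not pass the test (adjusted p = 0.201 in limma). It did with arrays weighted by their quality (-0.75, adjusted p = 0.0148 in limma) and without tumors 7 and 8 (-0.83, adjusted p = 0.00578 in limma). The latter setting was added after the values were seen. It leaves out the highest Cebpb ratios, so a lower mean there was fixed in advance. In the tumors the Cebpb level ran from 12.41 to 13.85, and in the control livers from 12.78 to 14.06. The control level was lowest on arrays 7 and 8, at 13.15 and 12.78, where the tumor levels of 13.85 and 13.64 were the highest, so both channels contributed to these ratios.

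**Figure D2:**
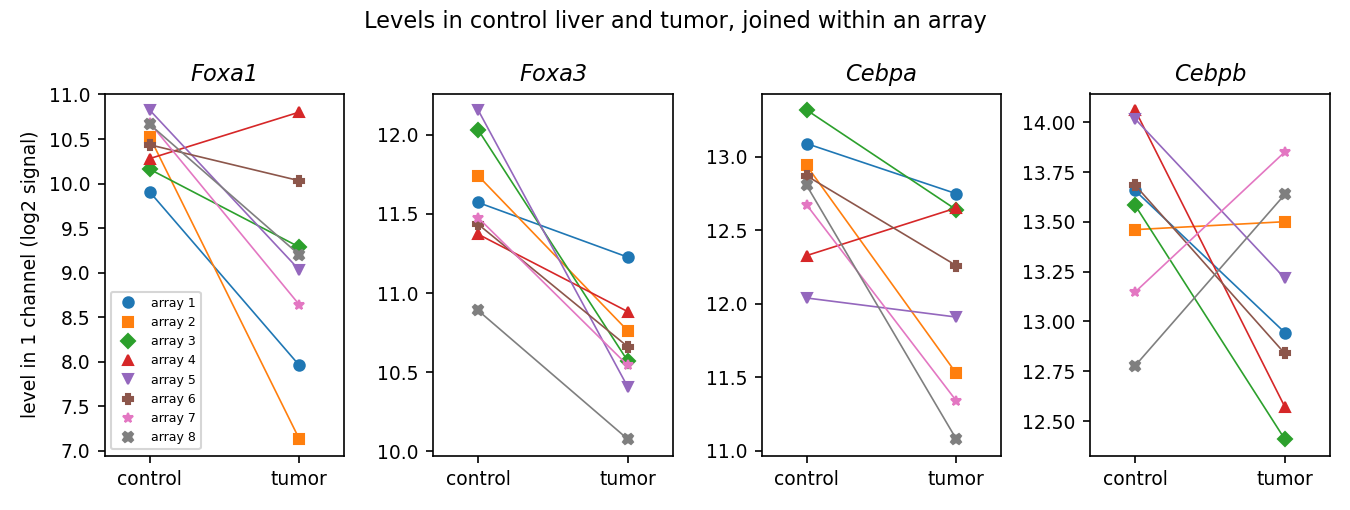
Level in 1 channel (log2 signal, vertical axis) of Foxa1, Foxa3, Cebpa and Cebpb in control liver and tumor, joined by a line within each of 8 arrays; the vertical scales differ between panels. Foxa1 spreads from 7.13 to 10.80 in the tumors but from 9.91 to 10.83 in the controls, and the lines of Cebpb on arrays 7 and 8 rise while most others fall.

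Onecut1, the homeodomain factor of hepatocyte and bile duct development, did not pass the test. Its log2 ratios were 0.13, -0.40, 0.33, 1.08, 0.67, 0.74, -0.20 and -0.69 in tumors 1 to 8, below 0 in tumors 2, 7 and 8. The mean was 0.21 ± 0.61 (SD, n = 8; 95% interval -0.22 to 0.64; adjusted p = 0.386 in limma). It reached an adjusted p of 0.0396 in limma (0.47) in 1 of 21 other settings, arrays weighted by quality. On array 8 the Onecut1 level of the control channel was 8.38, above the 6.86 to 7.64 of the other control channels.

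Prox1, a homeodomain factor of hepatocytes and lymphatic endothelium, did not pass either. Its log2 ratios were 0.25, -0.75, -0.16, 0.79, 0.44, 0.82, -0.20 and -0.52 in tumors 1 to 8. The mean was 0.08 ± 0.59 (SD, n = 8; 95% interval -0.33 to 0.50; adjusted p = 0.724 in limma), and its sign turned in 3 of the other settings. Tumors 4 and 6 were highest and tumors 2 and 8 lowest, much as for Onecut1.

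Within arrays, 7 of 36 pairs of factors differed in their log2 ratio at an adjusted p under 0.05, all with the smallest p that 8 arrays allow in the exact sign-flip permutation test (p = 0.00781, adjusted over 36 pairs p = 0.0402). Foxa1 was lower than Onecut1 (log2 difference -1.64 ± 0.85) and Prox1 (-1.51 ± 0.84), in 8 of 8 tumors each. Foxa3 was likewise lower than Onecut1 (-1.15 ± 0.79) and Prox1 (-1.03 ± 0.68), and lower than Hnf4a, where the difference of Hnf4a minus Foxa3 was 0.65 ± 0.42. Cebpa was lower than Onecut1 (-0.95 ± 0.27) and Prox1 (-0.82 ± 0.37), with the smallest SDs of the 7 pairs. The other 29 pairs had an adjusted p of 0.0703 or more, which does not show that they changed alike. Onecut1 had the dimmest probe of the factors, with mean levels (log2) of 7.56 in the tumors and 7.35 in the controls. At the smaller offset of 16 its mean log2 ratio was 0.26 in place of 0.21, and 6 pairs differed.

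Of the 36 pairs, 4 correlated over the 8 tumors at an adjusted p under 0.05 by Pearson's r. By Spearman's rho none did, the lowest adjusted p being 0.0804 (exact permutation test). For Onecut1 and Prox1, Pearson's r of the log2 ratios was 0.917 (exact permutation p = 0.00255, adjusted p = 0.0366) and Spearman's rho 0.929 (exact permutation p = 0.00223, adjusted p = 0.0804). Without tumors 4 and 8, the farthest from the median of Onecut1, r was 0.897, and with each row of the slide centred it was 0.942. On the levels of single channels the relation was weaker, with r = 0.426 over the tumor channels and 0.223 over the control channels. The 4 pairs also held Cebpa with Cebpb, Cebpa with Onecut1 and Cebpb with Onecut1. The ratios of Cebpa and of Cebpb fell into separate sets, tumors 2, 7 and 8 against the other 5, so no coefficient is given for them, and the relations were not tested within either set. Tumors 2, 7 and 8 were also the lowest for Onecut1 and for Prox1, though for Prox1 tumor 7 (-0.20) lay close to tumor 3 (-0.16). The r of Onecut1 with Prox1 thus spans both sets, and it was not tested within either.

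**Figure D3:**
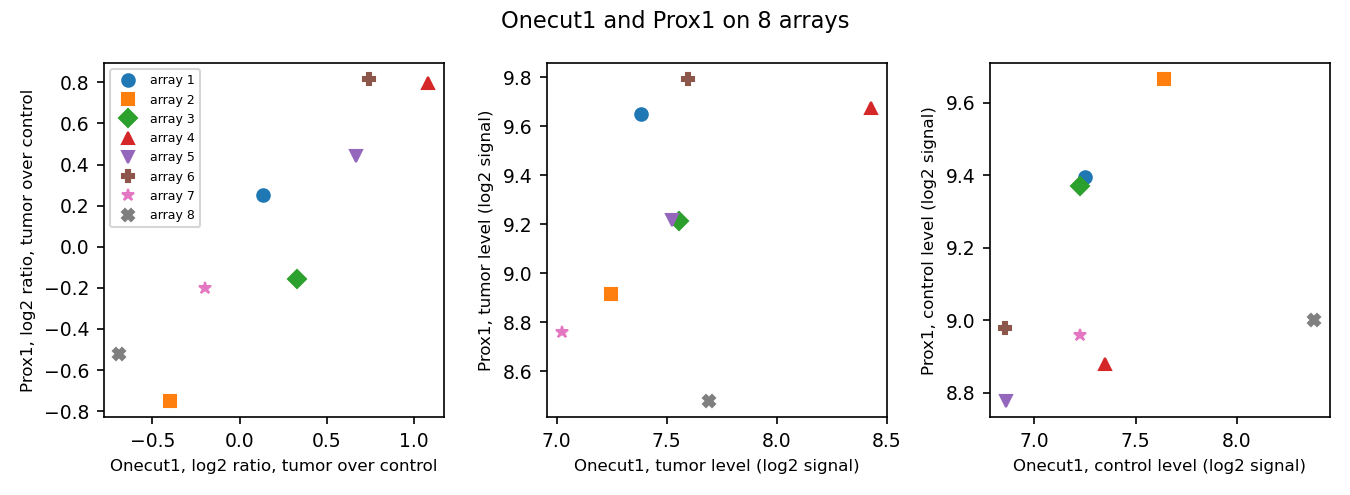
Prox1 (vertical axis) against Onecut1 (horizontal axis) on 8 arrays, as log2 ratios (left), as tumor levels (middle) and as control levels (right), in log2 signal. The log2 ratios rise together with r = 0.917, while the tumor levels (r = 0.426) and control levels (r = 0.223) scatter more widely.

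Tumors 2, 7 and 8 were thus the 3 lowest for Cebpa, Onecut1 and Prox1 and the 3 highest for Cebpb. Markers of bile duct cells moved with this order. Of 14 such markers 12 were tested, and 5 rose and 0 fell, against 9.54% and 5.94% of all genes tested. The largest rises were those of Spp1 (3.34 ± 1.04), a secreted phosphoprotein, and Mmp7 (3.21 ± 0.56), a matrix protease. Elf3 (2.39 ± 0.42), an epithelial factor, and Cldn7 (2.28 ± 0.74), a tight junction protein, followed. The chloride channel Cftr, also on this list, was lower on all 8 arrays at a size short of a call (-0.86 ± 0.48, adjusted p = 0.00144 in limma). Without tumors 7 and 8, 8 of the 12 were called higher. That setting was added after the values were seen and leaves out tumors with low medians, which by itself favours such calls. The median log2 ratio of the 12 was 0.34, 0.30 and 0.04 in tumors 2, 7 and 8, and 1.16, 1.28, 1.75, 1.79 and 1.77 in tumors 1, 3, 4, 5 and 6. Their summed level (log2) ran from 12.01 to 16.67 in the tumors and from 11.54 to 12.94 in the control livers. Their part in the values of Onecut1, Prox1, Cebpa and Cebpb was not tested. The split of the tumors was not particular to these genes. Tumor levels were also compared over all genes tested, each centred on its mean. Tumors 2 and 7 then had r = 0.561, the highest of all tumor pairs, tumors 7 and 8 had 0.172, and tumors 2 and 8 had 0.082. Each of these 3 had a negative r with each of tumors 1, 3, 4, 5 and 6, from -0.570 to -0.143.

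**Figure D4:**
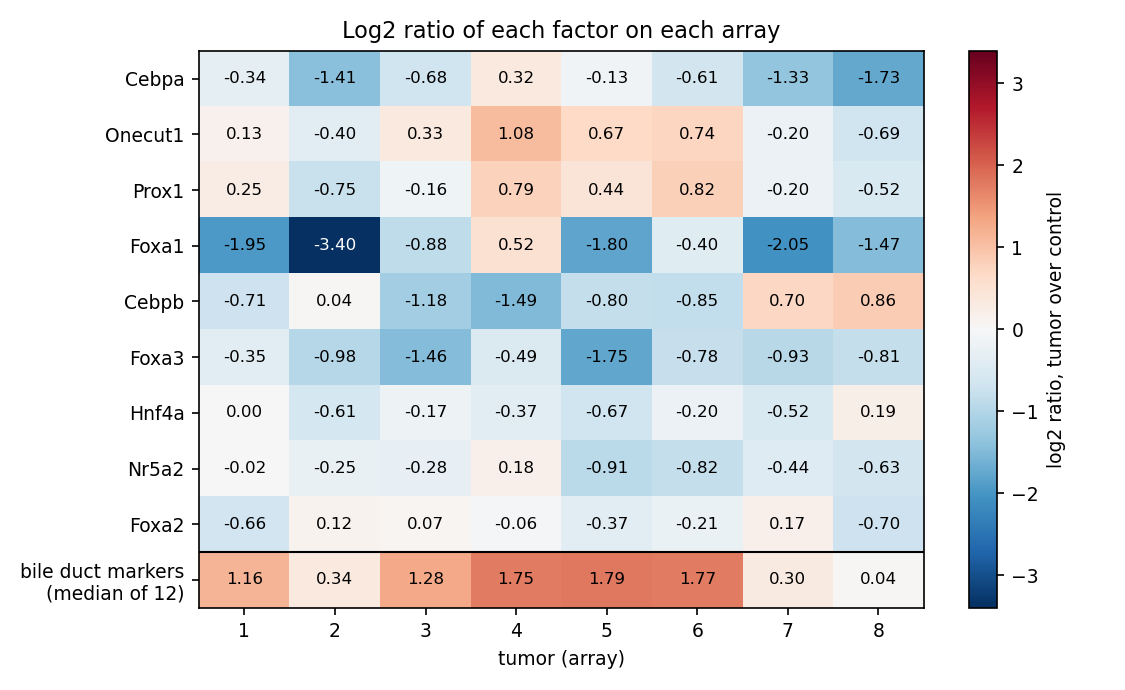
Log2 ratio of tumor over control for each factor (rows) in each tumor (columns), with the median of 12 bile duct markers in the bottom row; red is higher and blue lower in the tumor. Cebpa, Onecut1, Prox1 and the bile duct markers are lowest in tumors 2, 7 and 8, where Cebpb is highest.

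Other cell types and array quality were compared in the same way. Beside the counts that follow, 5.94% of all genes tested were called lower and 9.54% higher. Hepatocyte markers, all 14 tested and well above background, had a median of -0.62, with 3 called lower (Serpina1a, Apoc3 and Apoa1) and array medians from -1.03 to -0.32. Their summed level ran from 20.24 to 20.75 in the tumors and 20.85 to 21.21 in the controls. Of 9 stellate cell markers, 5 rose, of 10 neutrophil markers 4 rose, of 16 myeloid markers 3 rose and 4 fell, of 10 endothelial and lymphatic markers 2 fell, and of 7 lymphocyte markers 0 were called. Skeletal muscle markers (7 of 16 listed passed the filter on dim probes, 0 called) had a median of -2.64 on array 8 and -0.19 to 0.06 on the others. Their summed level (log2) ran from 10.6 to 12.4 in the tumors and from 10.6 to 16.1 in the controls, so the highest value lay in a control channel. Tumor 8 gave the lowest signal (upper quartile 213 in the tumor channel, against 378 to 606), and its ratios correlated least with the other arrays over genes (mean r 0.528, against 0.630 to 0.741). Probes well above background made up 38.5% to 51.9% in the tumor channel and 45.1% to 54.3% in the control channel. The controls of arrays 1 and 2 differed by an SD of 0.259 over genes, against 0.327 to 0.564 for the other pairs. With each gene centred on its mean, their levels correlated with r = 0.691, against 0.224 or less for the other pairs of controls. Whether arrays 1 and 2 shared control RNA is not given in the labels. The part of these features in the factors' values was not tested beyond leaving arrays out.

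Among other members of the same protein families, 1 rose and none besides Foxa1 fell by the size a call required. Of all genes tested, 9.54% rose and 5.94% fell by that measure. Ddit3, a stress-induced relative of the C/EBP factors, rose by 1.02 ± 1.03 (adjusted p = 0.0203 in limma, 7 of 8 tumors). Cebpd, induced in inflammation, was at 0.56 ± 0.97 and Cebpg at 0.13 ± 0.25, and neither passed. Cebpe, a granulocyte factor, varied most, at -1.07 ± 2.12 with an adjusted p of 0.181 in limma. Nr5a1, the steroidogenic relative of Nr5a2, was lower on all 8 arrays, at -0.54 ± 0.22 (adjusted p = 8.87e-04 in limma). Onecut2, which shares binding sites with Onecut1, was at -0.20 ± 0.66 and Prox2 at -0.16 ± 0.21, neither past the test. Hnf4g and Onecut3 did not pass the filter on dim probes.

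Of 47 further transcription factors of the liver, 6 fell, 0 rose and 41 were not called (10 fell with the scanner's processed signals). Among all genes tested, 5.94% fell and 9.54% rose. With no limit on size, 20 of the 47 were lower and 3 higher at an adjusted p under 0.05 in limma. Over all genes these shares were 25.1% and 28.7%. The median of the 47 was -0.33, close to that of the 9 factors. The largest falls were those of Tbx3, a pericentral T-box factor, at -2.75 ± 1.63, and Nr1i3, the xenobiotic receptor CAR, at -2.41 ± 1.05. Klf9, a target of glucocorticoid and thyroid hormone, was at -1.42 ± 0.86 and Bcl6, a repressor of the growth hormone response, at -1.31 ± 0.59. The GATA factors, which share enhancers with Foxa proteins, had means of opposite sign. Gata4 fell by 1.05 ± 0.25 on all 8 arrays (adjusted p = 2.73e-05 in limma), and Gata6 was at 0.83 ± 0.46, above 0 on all 8 arrays (adjusted p = 0.00137 in limma), short of a call. Nr1h4, the bile acid receptor FXR, was at -0.94 ± 0.77 (adjusted p = 0.00844 in limma), short of a call. Esrrg, an orphan nuclear receptor, was called at -1.05 ± 0.43, with a signal well above background in 2 of 8 tumors and all 8 controls. Its 2 tested probes had means of -1.05 and -0.95, the latter short of the size a call requires. Gata4, Gata6, Nr1h4 and Esrrg were named after their values were seen.

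Of 16 coregulators, 1 was called, where 5.94% of all genes tested were called lower and 9.54% higher. This was Med1, a Mediator subunit that binds nuclear receptors, at -1.41 ± 0.36 by its brightest probe. The tested probes of Med1 ranged from -1.41 to 0.07, and with the mean of all probes 0 coregulators were called. The median of the coregulators was -0.01.

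Genes known as targets of the factors were counted from lists that overlap in part. For this list and those below, the share of all genes tested was 5.94% called lower and 9.54% called higher. Of 28 tested targets of HNF4A, 10 fell and 1 rose, with a median of -0.75. Cyp8b1, the sterol 12-alpha-hydroxylase of bile acid synthesis, fell, with a log2 ratio of -3.69 ± 1.64. So did Otc, a urea cycle enzyme (-2.71 ± 0.65), and Cyp7a1, which catalyses the limiting first step of that synthesis (-2.41 ± 1.83). Nr1i3, named above, is also on this list. Apoa4, an apolipoprotein of lipid-loaded liver, rose by 1.64 ± 1.73 (adjusted p = 0.0245 in limma, 7 of 8 tumors). The median of the list lay between -1.09 and -0.50 on every array, while Hnf4a itself lay between -0.67 and 0.19.

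Of 11 targets of the FOXA proteins, 2 fell and 2 rose, with a median of -0.66. Serpina1a, the protease inhibitor alpha-1-antitrypsin, fell (-1.79 ± 0.47), as did Cps1, the first enzyme of the urea cycle (-1.64 ± 1.27). Afp, the fetal albumin relative, rose by 6.50 ± 0.92 on all 8 arrays, and Igfbp1, a secreted IGF-binding protein, by 1.94 ± 2.11. Calls in this list changed with the setting, from 2 to 5 called lower.

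The 13 metabolic targets of the C/EBP proteins had a median of -0.68, with 4 lower (Otc, Serpina1a, Cps1 and the glycogen synthase Gys2 at -1.38 ± 0.68) and 0 higher. Per tumor, the median of this list was 0.16, -0.29 and -0.32 in tumors 2, 7 and 8, where Cebpa was lowest, and -2.17, -1.73, -1.05, -1.08 and -1.25 in tumors 1, 3, 4, 5 and 6. The targets were thus least reduced in the tumors with the least Cebpa and the most Cebpb; this was seen in the values and was not tested. The FOXA targets, some of which are on both lists, had their highest medians in the same 3 tumors, at 0.18, 0.09 and 0.46. Without tumors 7 and 8, 8 of the 13 C/EBP targets and 5 of the 11 FOXA targets were called lower. That setting was added after the values were seen and leaves out tumors with high medians, which by itself favours such calls.

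Of 15 acute phase genes linked to CEBPB, 3 fell and 1 rose, with a median of -0.30. The pentraxins Apcs and Crp, proteins of innate immunity, fell (-2.72 ± 1.35 and -2.17 ± 0.96), as did the fibrinogen chain Fgg, measured on 7 arrays (-1.34 ± 0.95). Lcn2, an iron-binding protein also made by neutrophils, rose by 2.10 ± 0.29 on all 8 arrays. As given above, 4 of 10 neutrophil markers rose. The median of the 10 was below 0 in tumor 7 (-0.19), and their part was not tested. Of 10 targets of NR5A2, 2 fell (Cyp8b1 and Cyp7a1) with a median of -0.28. Of 10 targets of ONECUT1, 2 fell (Cyp7a1 and the glycolysis regulator Pfkfb1 at -1.08 ± 0.49) with a median of -0.65, and other settings gave 1 to 5.

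**Figure D5:**
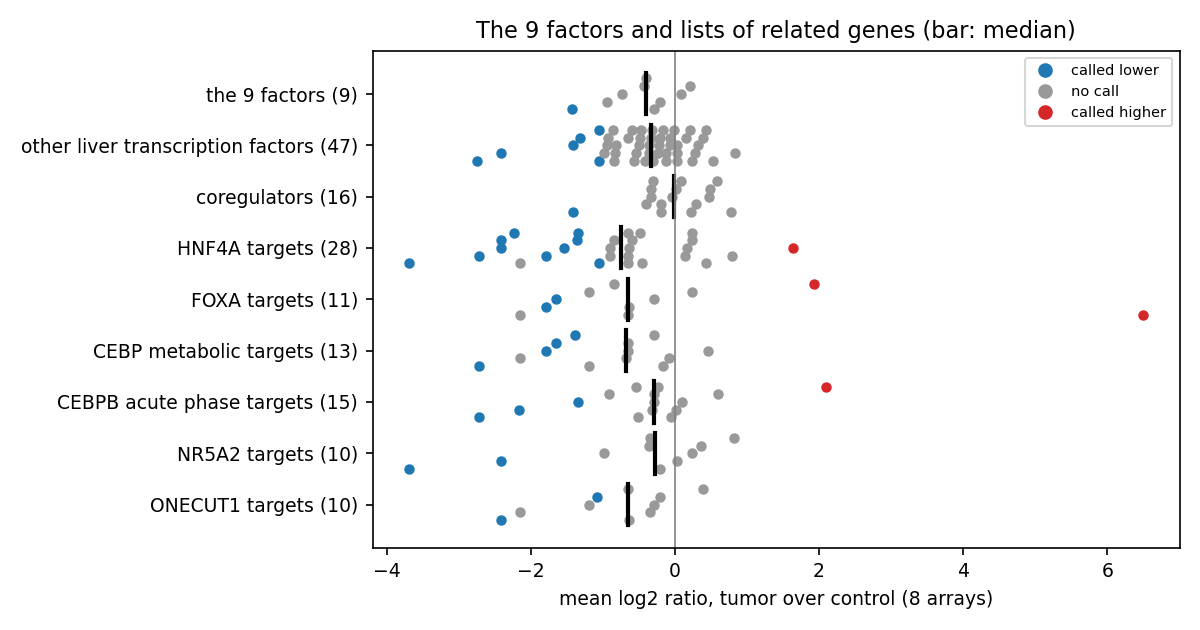
Mean log2 ratio over 8 arrays (horizontal axis) of the 9 factors and of the tested genes of each list (rows), 1 point per gene, blue where called lower, red where called higher and grey otherwise; black bars are medians. The median is -0.39 for the 9 factors and -0.75 for the HNF4A targets, and Afp stands at 6.50.

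The genes whose 8 log2 ratios were most like those of each factor were taken by Pearson's r over 14303 genes with values on all arrays, as a description, since with 8 arrays high values of r are common. For Foxa1 these were Socs2, a suppressor of growth hormone signalling, with r = 0.982, Nav2 (0.977) and Gm20867 (0.970), and 36 genes exceeded 0.9. The order of Socs2 over the tumors was thus close to that of Foxa1, although its mean was 0.38 ± 1.26. For Foxa3, the only gene above 0.9 was Nxt1, a nuclear export factor (0.914), followed by Gcc1 (0.894) and Arsb (0.892). For Hnf4a they were Spatc1l (0.961), Gpbp1l1 (0.933) and Lurap1l (0.928), and for Foxa2 Park7 (0.963), Trmt10a (0.955) and Mypop (0.943). Cebpa and Cebpb had 84 and 102 genes above 0.9, led by Chmp6 (0.981), Nfatc1 (0.974) and Skint3 (0.966) for Cebpa and by Tmem270 (0.969), Rab3gap1 (0.968) and Slc22a3 (0.967) for Cebpb. For Nr5a2 they were H2aw (0.960), Irf1, an interferon response factor (0.946), and Arid1a, a chromatin remodelling subunit (0.936). Onecut1 had the most, with 151 genes above 0.9, led by Abi3bp (0.976), Gpsm2 (0.975) and Slc9b2 (0.971). For Prox1 they were Btbd11 (0.977), Chkb (0.958) and Ajuba (0.952); Btbd11, at 1.77 ± 1.18, and Ajuba, a LIM-domain protein, at 2.28 ± 0.74, were called higher in the tumors while Prox1 was not.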

How the data were processed

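Total RNA of 8 tumors and of control livers was hybridised on 8 Agilent arrays of 2 colours. Per the submitters' processing notes the images were read with Agilent Feature Extraction 10.9, and per the file headers the version was 10.9.1.1. The deposited files hold median spot signals and backgrounds as intensity, processed signals, also intensity, and a log ratio that is log10 of red over green.

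From the deposited signals, backgrounds were corrected with normexp (offset 50) and arrays normalized within themselves by loess, with control and outlier spots left out (limma 3.58.1 and data.table version 1.17.8 in R 4.3.3). Levels in single channels were taken after Aquantile normalization. Tested were 29292 probes whose signal was well above background in a channel on 4 arrays or more, and the brightest tested probe stood for each gene (14313 genes). Of the probes, 26582 were named through their accession in RefSeq's table for GRCm38.p6, 10 kept the file's name and 29089 had no symbol; the array's own positions are those of mm9. The mean ratio was tested against 0 with limma (lmFit, eBayes) and adjusted by Benjamini-Hochberg; errors are SDs over arrays. Nothing in the labels ties tumors to animals, so p-values measure the spread between these samples.

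The factors and all gene lists were chosen with earlier results of these data known. Named genes are the factors, their relatives, up to 4 called genes of each functional list and the 3 genes most like each factor; exceptions are marked, and a few list members are not reported here. Marker lists other than bile duct and hepatocyte markers are given as counts. Alternatives covered background, offset, processed signals, centring, scaling, filters, probes, variance model, array weights, slide row and each array left out; 2 were added after seeing the data. On simulated data of the tumor over control test, with 14313 genes, the fit called 62 of 67 genes given a log2 shift of 1.5 and 66 of 66 given a shift of 3, with 3 false calls; of 67 given a shift of 0.5, below the size a call requires, it called 0.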

Additional observations from a re-analysis of the deposited data

Results flagged for a closer look

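Of 33 sets of 8 values (ratio, tumor level and control level of the 11 probes), 2 held a value that stood apart from the other 7 by Dixon's test, which flags about 1 set in 20 by chance. Both belonged to the second, dimmer Nr5a2 probe in tumor 8. Its log2 ratio there was 1.28, where the other tumors lay between -0.53 and 0.13. Its tumor level there was 9.11, where the others lay between 7.39 and 8.14. The brighter Nr5a2 probe was at -0.63 in the same tumor.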

How the results depend on the processing

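In every one of the 21 other fits, Foxa1 was called lower (-1.73 to -1.11, adjusted p 0.00245 to 0.0376 in limma) and Foxa3 stayed below 0 with an adjusted p of 6.61e-04 to 0.00367. Prox1 turned sign with the processed signals (-0.077), without tumor 4 (-0.017) and without tumor 6 (-0.020; range -0.020 to 0.20 with 1 array left out), and passed the test in none. The processed signals gave 1531 genes called lower in place of 850. Leaving out 1 array, the factors called lower numbered 1 to 2 and those below 0 at an adjusted p under 0.05 numbered 3 to 5. Pairs of factors that differed fell from 7 to 0 with arrays 1 and 2 averaged, without arrays 7 and 8, and without any 1 array (0 to 0). The smallest sign-flip p that can be reached rises as arrays are lost, to 0.0156 with 7. This makes an adjusted p under 0.05 harder to reach but does not by itself fix the count at 0. Pairs that correlated numbered 6 with each row of the slide centred and 2 at an offset of 16. They numbered 0 with the processed signals, with arrays 1 and 2 averaged and without arrays 7 and 8. With 1 array left out they numbered 0 to 1, and the cause was not tested beyond the loss of arrays. Of 336 list counts, 317 stayed within 1.5 times. No paired analysis was possible because the arrays form 1 group and share no replicate numbers with another; tumor and control are paired within each array, and every test is on that ratio. Tumor 8, with the lowest signal, is the least reliable array, and the number of arrays limits the precision.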
